A study of Mus musculus with 5 samples.

Results

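The mitotic spindle and kinetochore genes described here are 40 named genes, chosen as every single-symbol probe set of the deposited table whose symbol is one of the 40. Each of the 40 had exactly 1 such probe set, and all 40 passed the filter on dim values, among 14979 genes tested in all. They were measured in MLE-15 cells, a mouse lung epithelial line from tumours of mice that carried the SV40 large tumour antigen under the human surfactant protein C promoter. There were 3 cultures transduced with a lentivirus for an shRNA against Grhl2 and 2 transduced with a non-silencing shRNA, each an independent transduction. Both groups carried the same vector with a GFP marker, were selected with puromycin as stable lines and express the large tumour antigen. The labels name 1 targeting hairpin. The product of Grhl2 is a Grainyhead-like factor that controls transcription in epithelia, and the series set out to find genes that it regulates.

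Chromosomes are divided by the spindle, an array of microtubules that holds them at the kinetochore, a layered protein structure built on centromeric chromatin. An inner layer binds the centromeric histone, the Ndc80 complex of the outer layer grips microtubules, and checkpoint proteins hold back anaphase until all kinetochores are attached. Aurora and Polo-like kinases correct and time these steps, and kinesin motors shape the spindle and the dividing cell. Most of these genes are transcribed in G2 and mitosis, under a repressor and activator system that includes the MuvB complex. The large tumour antigen binds the retinoblastoma family of proteins, which restrain that system in normal cells.

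Median log2 signal was 5.30, 5.29 and 5.30 on the Grhl2 shRNA arrays and 5.32 and 5.29 on the control arrays. All 10 lung epithelial markers passed the filter, with mean log2 values of 6.83 to 12.1, and none was called. Of 5 endothelial and 5 immune markers, 3 and 3 passed the filter, and Emcn and Cd79a were the dimmest at mean values of 3.34 and 2.87. The summed log2 value of the 5 endothelial markers was 22.6 to 23.2 on shRNA arrays and 23.2 to 23.3 on control arrays, and that of the 5 immune markers 22.7 to 23.0 and 23.0 to 23.2. Of 6 fibroblast markers only Dcn, the matrix proteoglycan decorin, was called, with a log2 fold change of 0.70 (limma adjusted p = 0.036), and the summed value was 34.3 to 35.0 on shRNA arrays and 34.2 to 34.4 on control arrays. The part of these markers in the results was not tested. Grhl2 had log2 values of 7.43, 7.43 and 7.60 on the shRNA arrays, against 7.77 and 7.68 on the control arrays. Its log2 fold change was −0.24 (SE 0.065, limma adjusted p = 0.082), 85.0% of the control signal, and missed the threshold. A two-sided exact permutation test over the 10 splits of 5 arrays cannot give a p below 0.2, so it cannot pass a threshold of 0.05 here. Grhl2 passed without shRNA replicate 3 (log2 fold change −0.29, limma adjusted p = 0.047) and missed the threshold when any other array was left out.

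Spindle and kinetochore genes were higher in the Grhl2 shRNA cells as a matter of many small differences. The log2 fold change (shRNA minus control) was above 0 in 38 of the 40, against 50.9% of all genes tested, and below 0 in 2, against 49.1%. Its median over the 40 was 0.13, against 0.002 over all genes. By limma, 12 of the 40 rose, 0 fell and 28 did not pass the adjusted threshold. Over all genes tested, 6.38% were called in either direction, 2.86% higher and 3.52% lower, against 30% of the 40. The 12 were Kif2c, Nuf2, Cdca8, Kif15, Cenpa, Cenpq, Bub1b, Ndc80, Spc25, Cenph, Cenpi and Kif11. Their rises lay between 1.15-fold and 1.27-fold. All shRNA values lay above both control values in 34 of the 40, where 21.0% of all genes did so. The groups lay the other way round only in Cenpt, where 20.5% of all genes did so, and overlapped in the other 5, Cenpc1, Cenpk, Cenpp, Cenpe and Cenpf.

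The number called depended on every array. It was 2 without shRNA replicate 1, 0 without shRNA replicate 2, 2 without shRNA replicate 3 and 0 without either control, whereas the number above 0 was 37 to 39. The genes that changed sign in these fits were Cenpk, Cenpc1 and Cenpe, all near 0. A culture with more dividing cells and one with more of these RNAs per cell cannot be told apart in bulk RNA.

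**Figure D1:**
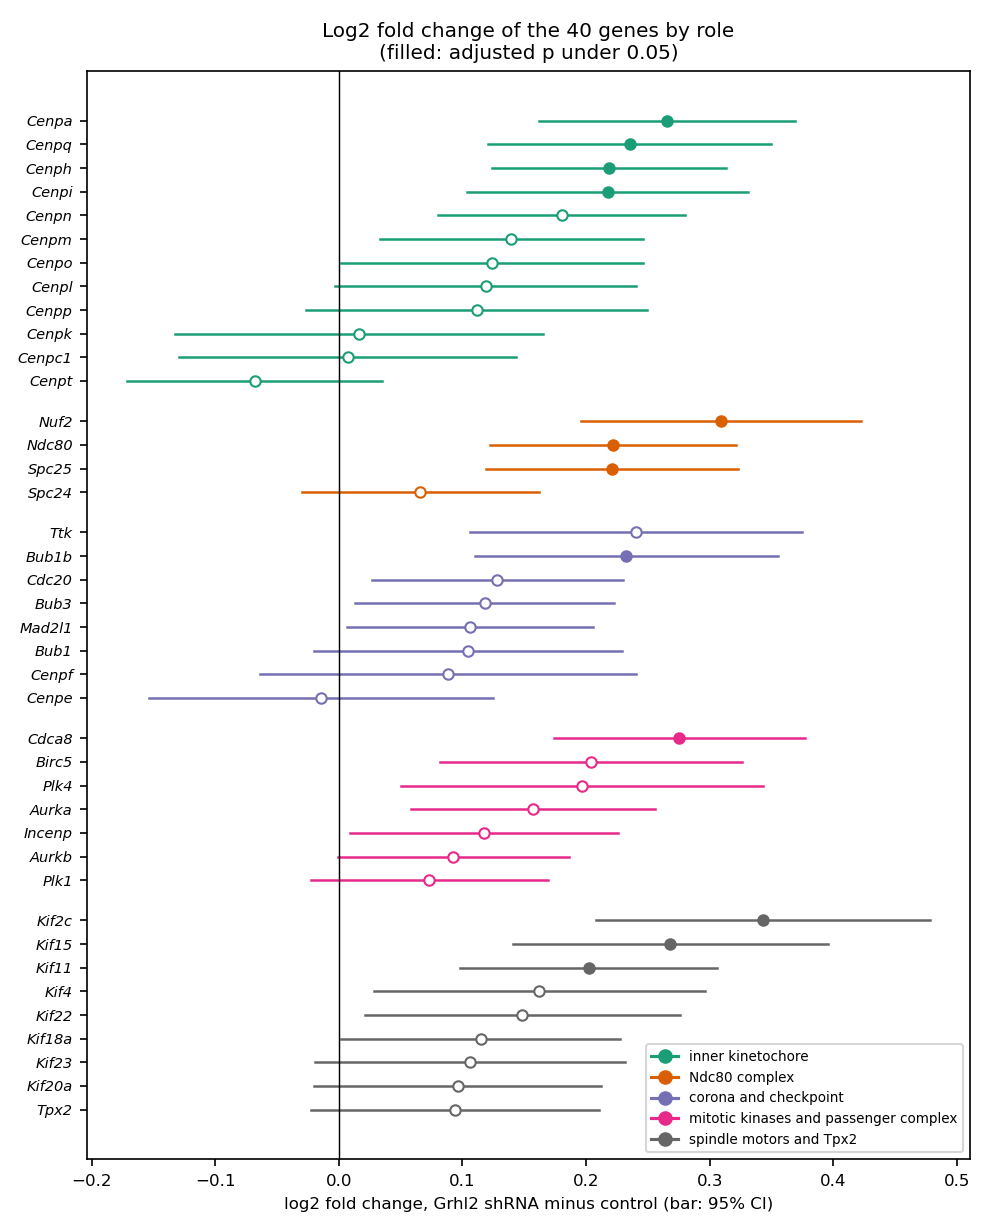
Log2 fold change (Grhl2 shRNA minus control, horizontal axis) of each of the 40 genes with its 95% confidence interval from limma, grouped by role, with filled points for adjusted p under 0.05. Of the 40 points 38 lie above 0, 12 are filled, and Cenpt and Cenpe lie below 0.

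The arrays within a group did not stand in 1 order for all genes. Relative to each gene's control mean, the median of the 40 genes was 0.17, 0.14 and 0.16 on shRNA arrays 1, 2 and 3 and −0.02 and 0.02 on the control arrays. Over all genes tested that median stayed between −0.006 and 0.006 on the 5 arrays. The highest of the 5 values fell on shRNA array 3 for 20 genes, on shRNA array 1 for 13 and on shRNA array 2 for 6. It fell on a control array for 1 gene, Cenpt on control array 2. The lowest value fell on control array 1 for 25 genes, on control array 2 for 11 and on shRNA arrays 1 and 2 for 2 each. shRNA array 3 was also the shRNA array with the highest Grhl2 value, whereas the highest median of the 40 was on shRNA array 1. A relation to the Grhl2 value was not tested.

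Promoter letters were compared because the genes lay on the same side of 0 together. RefSeq promoters (build GRCm38.p6, 250 bases before to 50 after the start) were matched by symbol for 35 of the 40 genes, in 38 windows of 300 bases, and the others were Spc24, Aurkb, Incenp, Kif20a and Tpx2. The letters searched on both strands were TTTGAA and TTTAAA, forms of the cell cycle genes homology region, CCAAT, the box bound by NF-Y, and AACCGGTT, a palindrome bound by Grainyhead-like factors. TTTGAA was present in 20 of the 38 windows (52.6%), against 12.2% of the promoters of all genes tested and 17.9% of all promoters in the table. CCAAT was present in 27 windows (71.1%), against 36.8% and 37.4%, and TTTAAA in 11 (28.9%), against 9.11% and 13.2%. AACCGGTT was in 0 of the 38 windows, against 0.201% and 0.146%. The 19 genes with TTTGAA had a median log2 fold change of 0.18, with 8 called, and the 16 without it a median of 0.12, with 4 called. The ranges overlapped, from 0.07 to 0.34 with TTTGAA and from −0.07 to 0.31 without it. For CCAAT the medians stood the other way round: the 24 with it had a median of 0.15, with 8 called, and the 11 without it 0.20, with 4 called. The 11 with TTTAAA had a median of 0.16, with 3 called, and the 24 without it 0.16, with 9 called. Fold changes and calls were split by these letters among the 35 genes only, not over all genes tested. These are descriptions of letters in a window, with no test, and not sites of binding.

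The stretches below run from 120 bases before to 30 after the start, 5′ to 3′ on the strand of the gene, with the first 3 of these motifs and their reverse complements in capitals. Cdca8 (chr4:124936888-124937037, minus strand), Cenpa (chr5:30666766-30666915, plus strand) and Kif11 (chr19:37376262-37376411, plus strand) were chosen as called genes that hold both TTTGAA and CCAAT. Kif2c (chr4:117178743-117178892, minus strand) and Nuf2 (chr1:169531435-169531584, minus strand) had the largest rises, and Cenpt (chr8:105851979-105852128, minus strand) had the lowest log2 fold change.
Cdca8: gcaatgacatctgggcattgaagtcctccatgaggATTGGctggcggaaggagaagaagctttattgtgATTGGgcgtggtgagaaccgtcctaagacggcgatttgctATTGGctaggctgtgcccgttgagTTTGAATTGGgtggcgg
Cenpa: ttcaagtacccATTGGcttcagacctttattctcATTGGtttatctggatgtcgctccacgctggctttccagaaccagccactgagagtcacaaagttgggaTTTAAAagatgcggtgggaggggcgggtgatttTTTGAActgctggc
Kif11: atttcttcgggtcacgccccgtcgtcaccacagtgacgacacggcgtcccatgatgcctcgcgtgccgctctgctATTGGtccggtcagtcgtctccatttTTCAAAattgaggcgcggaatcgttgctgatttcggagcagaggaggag
Kif2c: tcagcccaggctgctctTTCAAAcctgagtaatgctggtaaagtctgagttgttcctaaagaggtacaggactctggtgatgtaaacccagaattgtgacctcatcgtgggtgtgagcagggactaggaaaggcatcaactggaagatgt
Nuf2: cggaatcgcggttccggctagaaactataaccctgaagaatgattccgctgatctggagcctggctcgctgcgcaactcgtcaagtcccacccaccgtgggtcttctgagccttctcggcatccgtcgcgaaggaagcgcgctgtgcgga
Cenpt: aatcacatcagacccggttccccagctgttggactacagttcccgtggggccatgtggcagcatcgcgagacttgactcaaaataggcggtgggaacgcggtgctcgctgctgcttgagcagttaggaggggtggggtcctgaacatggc
In Cdca8 the TTTGAA at base 14 after the start shares its last letter with an inverted CCAAT at base 19, and 3 more inverted CCAAT lie upstream. In Cenpa a TTTGAA at base 17 follows a TTTAAA that begins 17 bases before the start, and in Kif11 an inverted CCAAT at −45 precedes an inverted TTTGAA at −19. Kif2c holds its inverted TTTGAA at −103 and a TTTAAA at −234, upstream of the stretch shown. Cenpt holds TTTAAA at −232 and −205, also upstream of the stretch shown. Nuf2 rose with none of these letters in its window.

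At the inner kinetochore, 4 of 12 genes rose and 0 fell, while 8 missed the threshold, with a median log2 fold change of 0.13. The share called was 33.3%, against 6.38% of all genes tested. Cenpa encodes the histone H3 variant that marks the centromere. It had log2 values of 9.62, 9.60 and 9.67 in shRNA cells, against 9.39 and 9.34 in control cells. The lowest shRNA value stood above the higher control by more than either group's spread, and the log2 fold change was 0.27 (SE 0.044, limma adjusted p = 0.021). Cenph and Cenpi belong to a subcomplex that builds on centromeric chromatin. Cenph had 8.47, 8.43 and 8.46 in shRNA cells and 8.23 and 8.24 in control cells, a log2 fold change of 0.22 (SE 0.040, limma adjusted p = 0.029). Cenpi, on the X chromosome, had 7.46, 7.43 and 7.38 in shRNA cells and 7.17 and 7.24 in control cells, a log2 fold change of 0.22 (SE 0.048, limma adjusted p = 0.045). Both genes had groups that did not overlap, closely spaced in Cenph and wider in Cenpi. Cenpq, of the subcomplex that also holds Cenpo and Cenpp, had 8.96, 9.03 and 9.02 in shRNA cells and 8.73 and 8.81 in control cells, a log2 fold change of 0.24 (SE 0.048, limma adjusted p = 0.038).

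The partners of these proteins did not all follow at the same size. Cenpn, which reads the centromeric nucleosome, had a log2 fold change of 0.18 and narrowly missed the threshold (limma adjusted p = 0.054), and its partner Cenpl had 0.12. Cenpm, which joins Cenph and Cenpi, had 0.14, and Cenpo and Cenpp had 0.12 and 0.11. Cenpk, of the same subcomplex as Cenph, had 8.49, 8.32 and 8.40 in shRNA cells and 8.33 and 8.44 in control cells. Its log2 fold change was 0.02 with a 95% confidence interval of −0.13 to 0.17, and the groups overlapped. Cenpc1, the scaffold that links the centromeric nucleosome to the outer layer, had 7.14, 7.18 and 7.31 in shRNA cells and 7.21 and 7.20 in control cells, a log2 fold change of 0.01 (95% confidence interval −0.13 to 0.14). Cenpt, which recruits the Ndc80 complex from the inner side, had 8.41, 8.39 and 8.39 in shRNA cells, below 8.43 and 8.50 in control cells. Its log2 fold change of −0.07 (95% confidence interval −0.17 to 0.04, limma adjusted p = 0.41) did not pass.

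The 4 subunits of the Ndc80 complex, which forms the microtubule grip of the outer kinetochore, had the highest median of the role groups, 0.22. Of the 4, 3 rose, a share of 75% against the 6.38% of all genes called. Nuf2, partner of Ndc80 in the microtubule-binding head, had log2 values of 8.95, 8.93 and 8.97 in shRNA cells, against 8.69 and 8.59 in control cells. The shRNA values lay close together, the controls wider, and the log2 fold change was 0.31 (SE 0.048, limma adjusted p = 0.019). Ndc80 had 9.34, 9.39 and 9.40 in shRNA cells and 9.14 and 9.17 in control cells, a log2 fold change of 0.22 (SE 0.042, limma adjusted p = 0.031). Spc25, of the end of the complex that faces the chromosome, had 8.54, 8.58 and 8.59 in shRNA cells and 8.32 and 8.38 in control cells, a log2 fold change of 0.22 (SE 0.043, limma adjusted p = 0.033). Its partner Spc24 had 7.90, 7.86 and 7.86 in shRNA cells and 7.81 on both control arrays. The Spc24 groups did not overlap, but its log2 fold change of 0.07 (95% confidence interval −0.03 to 0.16) did not pass.

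**Figure D2:**
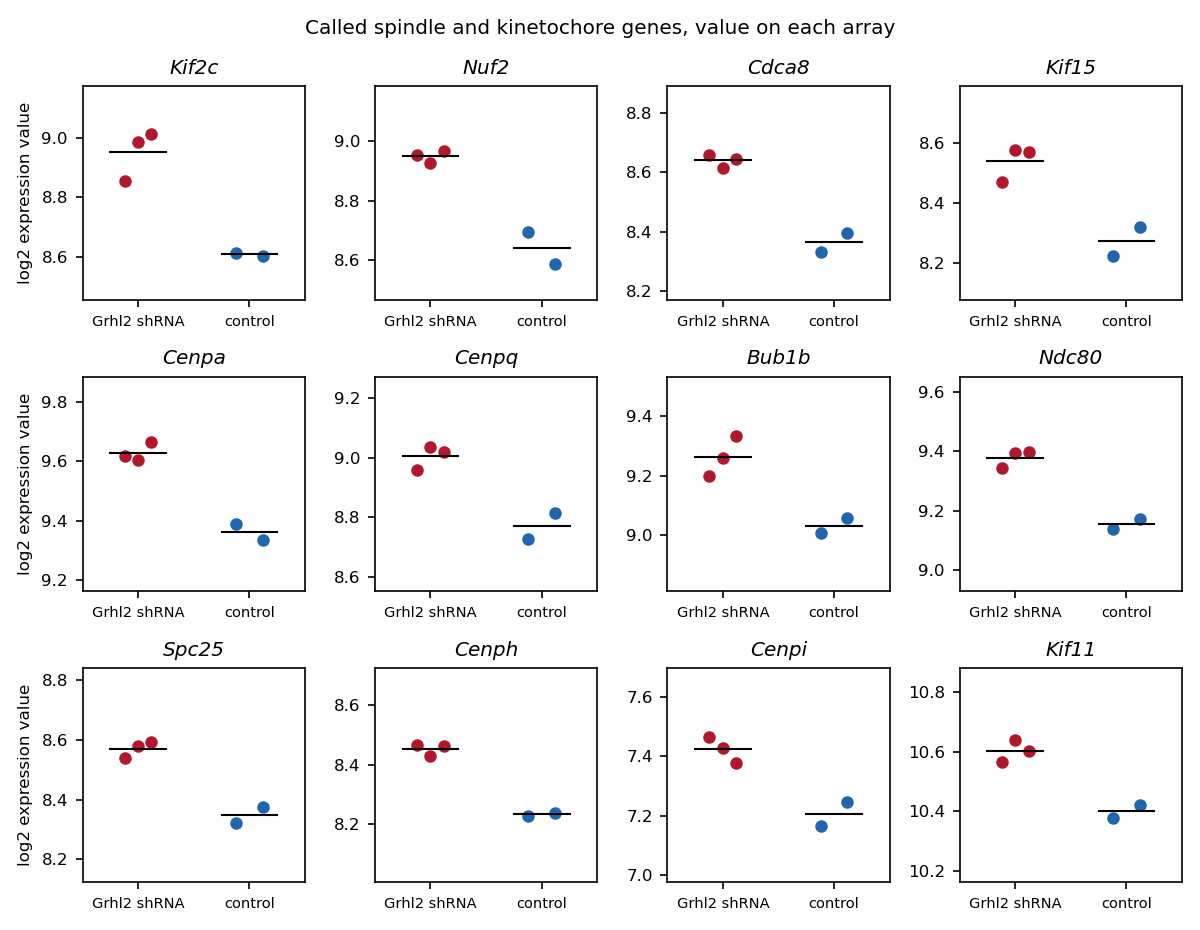
Log2 expression value (vertical axis, every panel spans the same width in log2 units) of the 12 called genes on each of 3 Grhl2 shRNA arrays and 2 control arrays, with lines at the group means. In each panel the shRNA points lie above both control points, by most in Kif2c, with means of 8.95 and 8.61.

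Of the 8 genes of the fibrous corona and the spindle checkpoint, Bub1b rose and 0 fell, while 7 missed the threshold, with a median log2 fold change of 0.11. The share called was 12.5%, against 6.38% of all genes tested. Bub1b encodes BubR1, a subunit of the complex that inhibits anaphase. It had log2 values of 9.20, 9.26 and 9.33 in shRNA cells, against 9.01 and 9.06 in control cells, a log2 fold change of 0.23 (SE 0.052, limma adjusted p = 0.047). Ttk, the Mps1 kinase that starts checkpoint signalling, had 8.37, 8.39 and 8.44 in shRNA cells and 8.08 and 8.24 in control cells. Its log2 fold change of 0.24 was as large as that of Bub1b, but its controls lay further apart and the limma adjusted p was 0.055. Cdc20, the activator of the anaphase-promoting complex on which the checkpoint acts, had a log2 fold change of 0.13. The checkpoint proteins Bub3 and Mad2l1 had 0.12 and 0.11, and the kinase Bub1 had 0.10, each with groups that did not overlap. The large corona proteins were the exceptions. Cenpf had 0.09 with overlapping groups, and Cenpe, a kinesin that carries chromosomes to the spindle equator, had 8.33, 8.35 and 8.49 in shRNA cells and 8.40 and 8.42 in control cells, a log2 fold change of −0.01 (95% confidence interval −0.15 to 0.12).

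All 7 genes of the mitotic kinases and the chromosomal passenger complex had groups that did not overlap, all higher in shRNA cells, where 21.0% of all genes did so. Only Cdca8 passed, a share of 14.3% against the 6.38% of all genes called. The median log2 fold change of the 7 was 0.16. Cdca8 encodes borealin, the passenger subunit that helps bring the complex to centromeres. It had log2 values of 8.66, 8.62 and 8.64 in shRNA cells, against 8.33 and 8.40 in control cells, a log2 fold change of 0.28 (SE 0.043, limma adjusted p = 0.019). Birc5, which encodes the passenger subunit survivin, had 8.24, 8.28 and 8.26 in shRNA cells and 8.13 and 7.99 in control cells, a log2 fold change of 0.20 (limma adjusted p = 0.067). The scaffold Incenp had 0.12, and the kinase of the complex, Aurkb, had 0.09, with log2 values of 10.859, 10.833 and 10.831 in shRNA cells and 10.752 and 10.745 in control cells. Of the other kinases, Plk4, which licenses centriole duplication, had a log2 fold change of 0.20 with controls of 8.97 and 8.82. Aurka, the centrosome and spindle pole kinase, had 0.16 (limma adjusted p = 0.075), and Plk1, which acts from mitotic entry to cytokinesis, had 0.07 (limma adjusted p = 0.34).

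Of the 8 spindle kinesins and Tpx2, all 9 had groups that did not overlap and were higher in shRNA cells, where 21.0% of all genes did so. By the test 3 rose, a share of 33.3% against the 6.38% of all genes called. The median log2 fold change of the 9 was 0.15. Kif2c encodes MCAK, a kinesin that takes microtubules apart at kinetochores, and it had the largest rise of the 40 genes. It had log2 values of 8.85, 8.99 and 9.01 in shRNA cells, against 8.61 and 8.60 in control cells. The controls were nearly equal and shRNA array 1 lay below the other shRNA arrays, and the log2 fold change was 0.34 (SE 0.057, limma adjusted p = 0.021), 1.27-fold. Kif15, a motor that helps keep the spindle poles apart, had 8.47, 8.58 and 8.57 in shRNA cells and 8.22 and 8.32 in control cells, a log2 fold change of 0.27 (SE 0.054, limma adjusted p = 0.036). Kif11, the motor that slides antiparallel microtubules to make the spindle bipolar, had 10.565, 10.638 and 10.603 in shRNA cells and 10.378 and 10.422 in control cells, a log2 fold change of 0.20 (SE 0.044, limma adjusted p = 0.044). The chromosome-arm motors Kif4 and Kif22 had 0.16 and 0.15, and Kif18a, which damps chromosome movement at the equator, had 0.11. The midzone and cytokinesis motors Kif23 and Kif20a had 0.11 and 0.10, and Tpx2, which activates Aurora A on spindle microtubules, had 0.09. These 6 genes did not pass, with limma adjusted p between 0.15 and 0.31.

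Other mitotic genes, in 5 lists that hold none of the 40, also lay mostly above 0. Among the 120 tested, 11 were called higher, 2 lower and 107 neither, with 95 above 0 and a median log2 fold change of 0.07. That is 10.8% called in either direction and 79.2% above 0, against 6.38% and 50.9% of all genes tested. The difference between these genes and the 40 was not tested. Of 23 further kinetochore and centromere genes, 3 rose and 1 fell, a share of 17.4% against the 6.38% of all genes. Spdl1, the dynein adaptor Spindly, rose by 0.27, Nsl1, of the Mis12 complex that Ndc80 docks on, by 0.21, and Kntc1, of the complex that brings Spindly to kinetochores, by 0.20. Cenpx, a histone-fold partner of Cenpt, had 8.53, 8.52 and 8.61 in shRNA cells and 8.75 and 8.82 in control cells, and fell by 0.23 (limma adjusted p = 0.039). Of 31 further spindle and cytokinesis genes, 3 rose and 0 fell, a share of 9.68% against the 6.38% of all genes. The 3 were the spindle proteins Dlgap5 (0.23) and Tacc3 (0.19) and the kinesin Kif18b (0.19). Of 19 condensin and cohesin genes, 2 rose and 0 fell, a share of 10.5% against the 6.38% of all genes. The 2 were Cdca5, the cohesin protector sororin (0.28), and the condensin II subunit Ncapg2 (0.24). Of 21 checkpoint and anaphase-promoting complex genes, 1 rose and 0 fell, a share of 4.76% that is no higher than the 6.38% of all genes. That was the subunit Cdc26, by 0.25, while Espl1, the protease separase, had 0.21 and did not pass.

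Regulators of mitotic entry were called in both directions. Among the 26 tested, 2 were called higher, 1 lower and 23 neither, with 19 above 0 and a median log2 fold change of 0.05. The shares were 11.5% called in either direction and 73.1% above 0, against 6.38% and 50.9% of all genes tested. Lin54, the subunit through which the MuvB complex reads TTTGAA-type elements, had log2 values of 9.70, 9.63 and 9.61 in shRNA cells, against 9.39 and 9.35 in control cells, and rose by 0.28 (SE 0.046, limma adjusted p = 0.021). The MuvB subunits Lin9, Lin52 and Lin37 had log2 fold changes of 0.03, 0.01 and −0.08, and none passed (limma adjusted p = 0.78, 0.92 and 0.41). The transcription factor genes Mybl2 and Foxm1 had 0.17 and 0.12 and did not pass either (limma adjusted p = 0.097 and 0.21). Mastl, the Greatwall kinase of mitotic entry, rose by 0.19. E2f7, a repressor of the E2F family, had 8.48, 8.43 and 8.45 in shRNA cells and 8.73 and 8.61 in control cells, and fell by 0.22 (SE 0.049, limma adjusted p = 0.047). Lin9, Lin52, Lin37, Mybl2, Foxm1, Cdk1, Top2a and Mki67 were picked after their values were seen. Cdk1, the mitotic kinase, had a log2 fold change of 0.10 and Top2a, the topoisomerase of chromosome separation, 0.13, and neither passed (limma adjusted p = 0.17 and 0.12). The proliferation marker Mki67 had 10.651, 10.724 and 10.778 in shRNA cells and 10.779 and 10.792 in control cells, a log2 fold change of −0.07 (95% confidence interval −0.19 to 0.05, limma adjusted p = 0.47).

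DNA replication genes, which act in S phase, were listed for comparison, with no test of a difference from the 40. Among the 47 tested, 5 were called higher, 0 lower and 42 neither, with 34 above 0 and a median log2 fold change of 0.04. That is 10.6% called in either direction and 72.3% above 0, against 6.38% and 50.9% of all genes tested. The 5 were the clamp loader gene Rfc3 (0.29), the helicase activators Mcm10 (0.28), Gins1 (0.26) and Cdc45 (0.21), and Gmnn, which encodes the licensing inhibitor geminin (0.21).

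**Figure D3:**
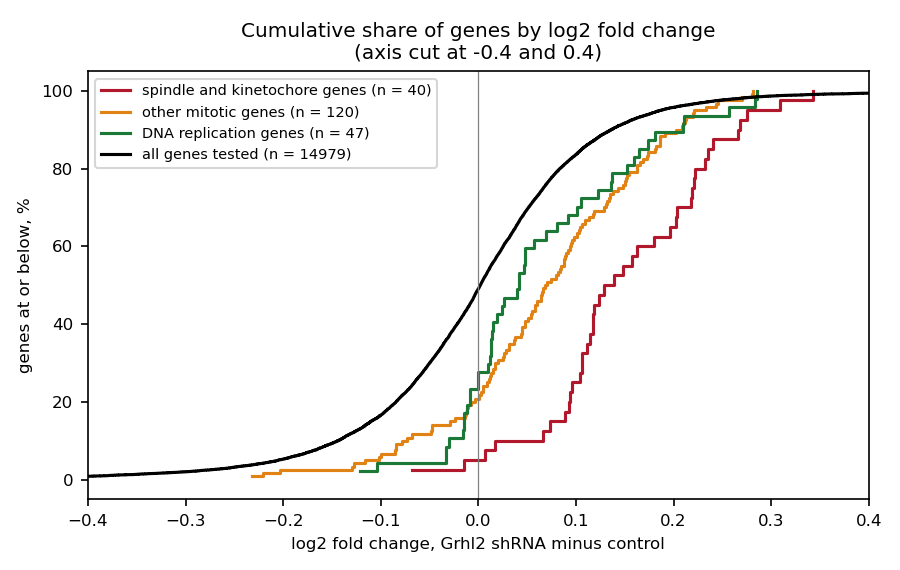
Cumulative percentage of genes (vertical axis) at or below a log2 fold change, Grhl2 shRNA minus control (horizontal axis, drawn from −0.4 to 0.4), for the 40 spindle and kinetochore genes, 120 other mitotic genes, 47 DNA replication genes and all 14979 genes tested. At its median the curve of the 40 lies farthest to the right, with medians of 0.13, 0.07, 0.04 and 0.002 in that order.

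**Figure D4:**
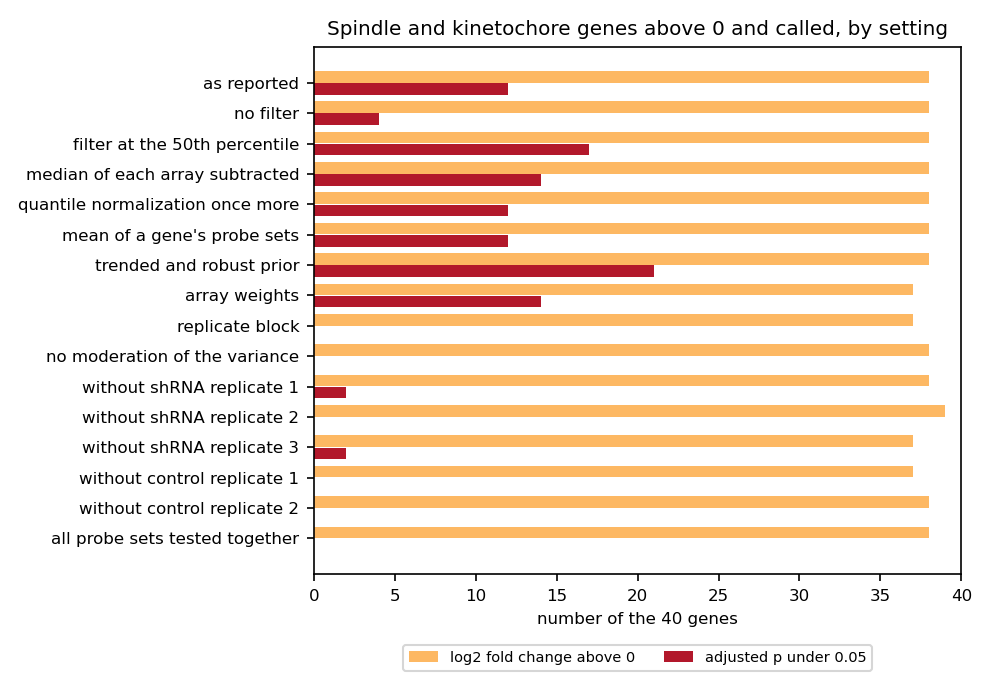
Number of the 40 genes (horizontal axis) with a log2 fold change above 0 and with an adjusted p under 0.05 under each setting of the analysis. The number above 0 lies between 37 and 39, while the number called runs between 0 and 21. Settings that change only the filter, the probe-set mean, the variance prior or the probe sets tested cannot move the number above 0.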

How the data were processed

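Whole-transcript arrays measured RNA of MLE-15 cultures, 3 with Grhl2 shRNA and 2 with a non-silencing shRNA. The deposited values are log2 expression values; the submitters' processing notes name RMA and Affymetrix Expression Console. RMA removes background, quantile-normalizes the arrays and combines the probes of a probe set. The log base follows from RMA and the range of the values. The sources used here do not give versions, genome build or filters.

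Of 34760 probe sets, 21640 carried 1 symbol in the platform annotation. Those with a 5-array mean of at least 4.22, the 25th percentile, were kept, and the brightest stood for each gene, which left 14979 genes. The 2 groups were fitted in limma 3.58.1 (lmFit, then eBayes) under R 4.3.3, two-sided, with 3 residual degrees of freedom per gene. A gene was called where its p, adjusted by Benjamini-Hochberg over the 14979 genes, was under 0.05. Precision is limited by the number of arrays, and the standard error of a log2 fold change had a median of 0.051.

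The 40 genes and the gene lists were chosen with earlier results of these data known. Called genes and the 3 genes nearest 0 were named by rule, the others by role. From each list of other mitotic genes, called genes up to 6 by size were named, or the largest 2 where fewer than 2 were called. The DNA replication list was added after the values of the 40 genes were seen. Alternatives covered the filter, normalization, probe sets, variance prior, array weights, replicate block, threshold and each array left out. Promoter sequences are RefSeq's, build GRCm38.p6.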

Additional observations from a re-analysis of the deposited data

How the results depend on the processing

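Under the 15 alternatives that gave a fold change, 37 to 39 of the 40 genes lay above 0, and the genes that changed sign were Cenpk, Cenpc1 and Cenpe. The median log2 fold change ran from 0.13 to 0.15 (0.1333 to 0.1506 with 1 array left out). The fold change of a gene with 1 probe set cannot move with the filter, the probe-set mean, the variance prior or the number of probe sets tested. The replicate block repeats the fold changes of the fit without shRNA replicate 3. The 12 calls became 4 with no filter (418 of 19937 genes called in all) and 21 with a trended robust prior (2034 of 14979). They became 0 with no moderation of the variance (9 genes called in all, and 23 of the 40 at an unadjusted p under 0.05). They were also 0 with all 34760 probe sets tested together (0 called, 19 of the 40 at an unadjusted p under 0.05). With 1 shRNA array left out, 0 to 2 of the 40 and 289 to 493 of all genes were called. In these fits 20 to 25 of the 40 had an unadjusted p under 0.05. Leaving out 1 control leaves 1 control array, which is assumed to vary like the shRNA arrays. The fit with a replicate block called 0 of the 40 (20 at an unadjusted p under 0.05) and 172 genes in all; it takes its contrast from replicates 1 and 2 alone. Deviations of arrays with the same number correlated at 0.057 and 0.019. The deviations of 2 control arrays mirror each other, so this check cannot decide whether a shared number marks a shared batch, and the labels do not say that it does. A threshold of 0.10 gave 16 calls. A filter at the 50th percentile gave 17, with 1708 of 9950 genes called in all.

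Other mitotic genes called higher and lower numbered 3 and 0 with no filter, 26 and 3 when filtered at the 50th percentile, and 32 and 3 with the trended robust prior. They numbered 1 and 0 with no moderation, 0 and 0 with the replicate block, and 0 to 3 and 0 with 1 shRNA array left out. The numbers called over all genes under these settings, given above, changed as well. Grhl2 passed when filtered at the 50th percentile (log2 fold change −0.24, adjusted p = 0.032), with the trended robust prior (−0.24, adjusted p = 0.023) and without shRNA replicate 3 (−0.29, adjusted p = 0.047). With 1 array left out it ran from −0.29 to −0.19, and it missed the threshold when any of the other 4 arrays was left out. Of the genes near 0, Cenpk turned to −0.0020 with array weights and ran from −0.041 to 0.074 with 1 array left out, Cenpc1 turned to −0.042 with the block and ran from −0.042 to 0.043, and Cenpe ran from −0.066 to 0.017. The cause of these shifts was not tested.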
